A study of Mus musculus with 12 samples.

Results

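The genes of chemokine ligands and chemokine receptors were followed in colon tissue and whole blood from a mouse model of ulcerative colitis (UC). A gene was taken as a chemokine gene if its symbol in the deposited tables was one of the Ccl, Cxcl, Xcl or Cx3cl ligands or of the Ccr, Cxcr, Xcr or Cx3cr receptors, followed by its number. The match by symbol used no measured value, but the rule was chosen with earlier results of these data known. This rule found 59 genes with 54 symbols among 53801 counted genes. All 59 stood in the colon table and 41 in the blood table. In the colon, 53 of them (37 ligand and 16 receptor genes) had a mean normalized count of at least 10 over the 6 libraries, and in the blood 27 (12 ligand and 15 receptor genes). Next to this limit, the scaffold gene of Ccl19 (mean 13.8) was inside and Ccr8 (8.72) outside in the colon, and Ccl22 (10.3) was inside and Cxcl10 (9.33) outside in the blood.

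The animals were C57BL/6 male mice, obtained at 8 weeks of age per the study's methods. The labels assign mice 1, 2 and 4 to UC, with 1.5% dextran sulfate sodium (DSS, a polymer that damages the gut lining) in the drinking water for 7 days, and mice 7, 8 and 9 to the control group, with the same water without DSS. All were killed on day 8. A colon and a blood library of total RNA came from each of the 6 mice, which gives 4 groups of 3 libraries. DSS injury is an acute chemical colitis and not the chronic human disease. The sample labels give the tissue in 2 fields that contradict each other in all 12 samples, and the field that matches the column names of the deposited tables was used. By that field, the summed normalized count of 6 gut epithelium markers ran from 762889 to 1726810 in the colon libraries and from 77.9 to 217 in the blood libraries, where 5 of the 6 were listed.

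Chemokines are small secreted or membrane-bound proteins that guide leukocytes by binding G protein-coupled receptors on their surface. Ligands are made largely by epithelium, stroma, endothelium and resident or recruited leukocytes, and the receptors are carried mostly by leukocytes, so that the set of receptors on a cell decides which ligands it follows. In the gut, some ligands are made constantly and place lymphocytes in the mucosa or in lymphoid follicles, whereas others are induced during inflammation and recruit neutrophils, monocytes and T cells. Whole tissue was measured here, and a change in the number of cells that express a gene cannot be told apart from a change in the RNA per cell.

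Before the values, one feature of these libraries bears on each comparison by disease label. In the colon, the libraries of mice 1, 7 and 9 held the 3 highest normalized counts of 6 of 6 neutrophil markers, 6 of 6 monocyte and macrophage markers and 6 of 6 T cell markers with a mean of at least 10, and these mice are labelled UC, control and control. The summed neutrophil markers were 36509, 7434 and 16534 in the libraries of mice 1, 2 and 4 and 27792, 17725 and 66047 in those of mice 7, 8 and 9. Ly6g made up most of that sum in each library but that of mouse 9. S100a8, which encodes a neutrophil alarmin, ranged from 22.3 to 5370 in the colon libraries labelled UC and from 75.6 to 13337 in those labelled control. The deposited normalized tables list the columns in the order of mice 1, 7, 9, 2, 4 and 8, and no grouping was taken from it. Whether the disease labels of these libraries are right could not be settled from the labels and tables used here, and each difference by label is one between the groups as labelled. The groups are therefore called labelled UC and labelled control throughout, and values are given library by library, always in the order of mice 1, 2 and 4 (labelled UC) and then mice 7, 8 and 9 (labelled control). Colon libraries held 69181049 to 103662306 counts and blood libraries 80867247 to 142536804.

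The promoter sequences of 6 ligand genes are shown. Of these genes, 5 had their 3 highest colon values in the same libraries, as did 35 of 53 members, and Ccl28 had them in the other 3. A link between that order and the motifs was not tested. Each sequence holds 250 bases before and 50 bases from the RefSeq start site (GRCm38.p6), read 5′ to 3′ on the strand of the gene. Capitals mark matches, on either strand, to the NF-kappa-B consensus, to GAAANNGAAA (the core of the interferon-stimulated response element) or to TATAAA. The 6 sequences were the following.
Cxcl1 (chr5:90890995-90891294, plus strand): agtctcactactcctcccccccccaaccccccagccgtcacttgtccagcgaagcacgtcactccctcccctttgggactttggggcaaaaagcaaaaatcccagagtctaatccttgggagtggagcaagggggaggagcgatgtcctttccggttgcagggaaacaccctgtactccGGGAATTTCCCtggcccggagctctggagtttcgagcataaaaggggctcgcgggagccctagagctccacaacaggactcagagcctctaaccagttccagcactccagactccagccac
Cxcl2 (chr5:90903649-90903948, plus strand): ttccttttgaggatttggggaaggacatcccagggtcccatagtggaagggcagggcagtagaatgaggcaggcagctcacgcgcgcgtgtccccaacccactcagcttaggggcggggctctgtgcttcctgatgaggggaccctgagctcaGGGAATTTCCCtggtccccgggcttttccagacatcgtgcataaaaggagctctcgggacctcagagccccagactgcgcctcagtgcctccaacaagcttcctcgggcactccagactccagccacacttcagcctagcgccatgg
Cxcl3 (chr5:90785851-90786150, plus strand): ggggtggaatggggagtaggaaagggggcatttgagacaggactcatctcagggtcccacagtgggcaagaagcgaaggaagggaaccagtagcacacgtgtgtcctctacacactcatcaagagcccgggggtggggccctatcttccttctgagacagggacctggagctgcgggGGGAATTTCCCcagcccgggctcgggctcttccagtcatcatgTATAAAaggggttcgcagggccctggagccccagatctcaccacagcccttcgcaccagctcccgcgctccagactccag
Cxcl9 (chr5:92328030-92328329, minus strand): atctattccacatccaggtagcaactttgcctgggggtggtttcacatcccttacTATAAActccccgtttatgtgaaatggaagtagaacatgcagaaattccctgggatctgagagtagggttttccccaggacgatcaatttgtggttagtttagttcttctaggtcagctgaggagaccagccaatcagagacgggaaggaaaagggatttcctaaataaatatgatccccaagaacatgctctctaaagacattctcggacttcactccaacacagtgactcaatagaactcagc
Cxcl10 (chr5:92348840-92349139, minus strand): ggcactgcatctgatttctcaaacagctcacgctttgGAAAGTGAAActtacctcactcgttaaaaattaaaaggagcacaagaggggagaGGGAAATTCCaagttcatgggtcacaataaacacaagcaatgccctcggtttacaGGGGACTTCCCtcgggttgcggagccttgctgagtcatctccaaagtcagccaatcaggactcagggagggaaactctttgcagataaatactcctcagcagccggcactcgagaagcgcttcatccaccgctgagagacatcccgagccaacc
Ccl28 (chr13:119623569-119623868, plus strand): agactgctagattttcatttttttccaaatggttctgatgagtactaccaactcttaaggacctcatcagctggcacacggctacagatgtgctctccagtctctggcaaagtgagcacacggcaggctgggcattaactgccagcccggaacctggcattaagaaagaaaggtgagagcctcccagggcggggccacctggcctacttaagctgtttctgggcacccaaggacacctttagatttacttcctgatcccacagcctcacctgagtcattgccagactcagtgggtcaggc

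The neutrophil ligand genes Cxcl1, Cxcl2 and Cxcl3 held the same 11 bases, GGGAATTTCCC, starting 71, 97 and 73 bases before the start site. These 11 bases contain 2 overlapping matches to the NF-kappa-B consensus, 1 on each strand. Cxcl10 held 3 matches to it, 2 of them overlapping, and a match to GAAANNGAAA that starts 213 bases before the start site. In Cxcl9 and Ccl28 no NF-kappa-B match was found in this window. Over the 44 RefSeq promoters available for 40 of the 54 chemokine symbols, 25% held at least 1 NF-kappa-B match against 8.46% of 32851 mouse promoters, 6.82% held GAAANNGAAA against 3.44%, and 25% held TATAAA against 13.6%. Several genes have more than 1 promoter and neighbouring chemokine genes are related in sequence, so these shares describe letters and not binding sites.

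The first comparison asked which chemokine genes differed between libraries labelled UC and labelled control in the colon. Of the 53 members with a mean of at least 10, 52 entered the edgeR fit (the scaffold gene of Ccl19 did not pass its filter). Of these, 0 were significantly differentially expressed (SDE), which required an absolute log2FC above 1 together with an adjusted p of 0.05 or less. Over all 22238 genes tested, 1 was SDE (0.0045%). DESeq2 called 0 members as well. At an unadjusted p under 0.05, edgeR returned 1 of the 52 members, Cxcl11, beside 1.41% of all genes, and DESeq2 returned 3 beside 2.51%. The log2FC was below 0, that is lower in labelled UC, in 45 of the 52 members with a median of -1.11, whereas 51.0% of all genes tested lay below 0 with a median near 0. The SE of a member's log2FC had a median of 0.902. The labelled groups overlapped in 52 of 53 members, and 5.59% of all 22123 genes at that level had labelled groups that did not overlap. The exception was Ccr10, which is described among the mucosal homing genes.

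Across the 6 colon libraries, most members were ordered alike. In 35 of 53 members (66.0%), the 3 highest normalized counts lay in the libraries of mice 1, 7 and 9, against 18.3% of the 22123 colon genes with a mean of at least 10. In 1 member, Ccl28, they lay in mice 2, 4 and 8, against 14.7% of all genes. Mouse 9 held the highest value of 33 members and mouse 7 that of 12, and both are labelled control. The same libraries held the highest neutrophil, monocyte and macrophage, and T cell marker counts given above. Other leukocyte markers differed, with 0 of 4 B cell, 0 of 3 NK cell and 1 of 2 eosinophil markers highest in these 3 libraries. The part of cell content in the ligand values was not tested.

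**Figure D1:**
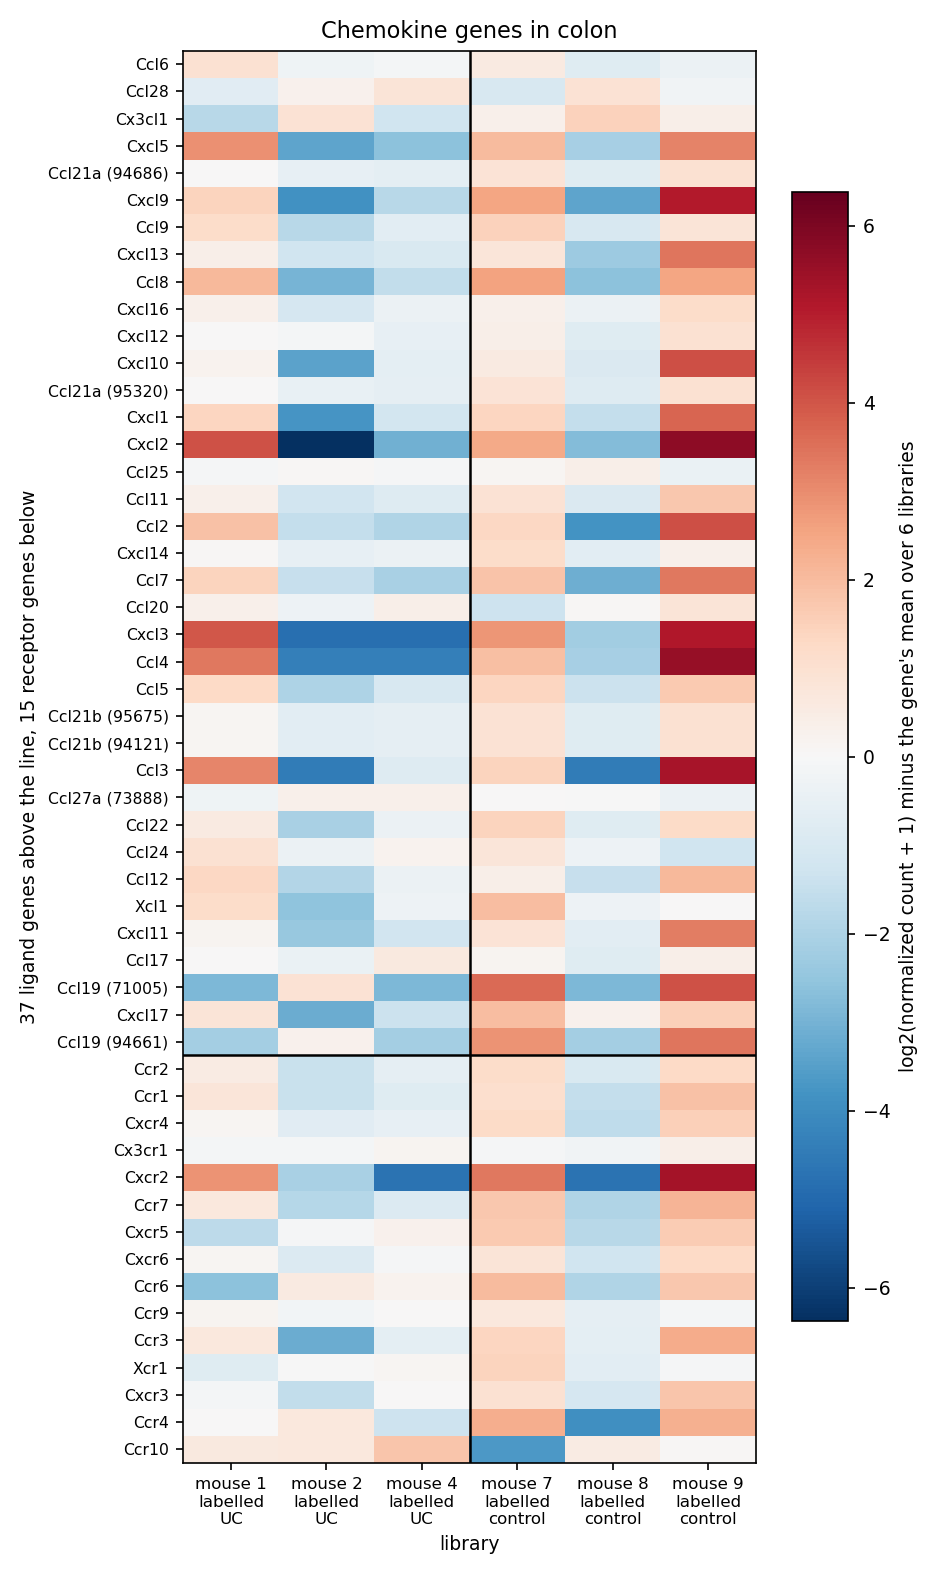
Rows are 52 of the 53 chemokine genes with a mean normalized count of at least 10 in the colon (digits in brackets are the end of the Ensembl identifier of genes that share a symbol) and columns the 6 colon libraries. Colour is log2(normalized count + 1) minus the gene's mean over the 6 libraries. Red cells gather in the columns of mice 1, 7 and 9 in both labelled groups, with Cxcl2, Cxcl3, Ccl3, Ccl4 and Cxcr2 spanning the widest range and Ccl28 showing the reverse order.

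The ligands that recruit neutrophils ranged widely between libraries. The normalized counts of Cxcl5, a chemokine of epithelial cells, were 9107, 117 and 195 in labelled UC and 4869, 277 and 10986 in labelled control. Cxcl2, which macrophages and neutrophils make on activation, had 1379, 0 and 9.07 against 440, 11.3 and 4398. Cxcl1, induced in epithelium and stroma, had 914, 24.4 and 153 against 894, 122 and 4549. In each of these genes mice 1, 7 and 9 were high and the other three low, and the labelled groups overlapped. On the plus strand of chromosome 5 (GRCm38), Cxcl5 (chr5:90759360-90761624), Cxcl3 (chr5:90786103-90789600), Cxcl1 (chr5:90891241-90893115) and Cxcl2 (chr5:90903871-90905938) lie in 1 cluster, with Cxcl15 between Cxcl3 and Cxcl1. Cxcl3 had 436, 0 and 0 against 201, 5.04 and 986. The receptor of these ligands, Cxcr2, followed the same order with 190, 5.23 and 0 against 268, 0 and 1058. Cxcr1, a second neutrophil receptor, stayed under the mean of 10, at 0 to 17.1.

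None of these genes passed the test by label. For Cxcl5 the mean was 3139 ± 5168 in labelled UC and 5377 ± 5372 in labelled control (SD, n = 3 each), with a log2FC of -0.78 ± 1.78 (SE) and an adjusted p of 0.99995 in edgeR. Cxcl2 had a log2FC of -1.80 ± 2.46, Cxcl3 of -1.45 ± 2.40, Cxcl1 of -2.35 ± 1.55 and Cxcr2 of -2.76 ± 2.33, at the same adjusted p. Leaving out mouse 9 turned the sign for Cxcl5, Cxcl2 and Cxcl3 and moved Cxcl1 to -0.52 and Cxcr2 to -1.08, and leaving out mouse 1 moved them to -4.38 and -7.35. For none of the 5 did the difference by label exceed the spread between libraries.

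The ligands induced by interferon, which attract T cells and NK cells through Cxcr3, were dominated by mouse 9. Cxcl9 had normalized counts of 705, 17.4 and 75.9 in labelled UC and 1544, 25.2 and 8817 in labelled control. Cxcl10 had 422, 33.1 and 235 against 530, 190 and 6237. Cxcl11, which the GENCODE annotation lists as a polymorphic pseudogene, had 25.6, 3.48 and 9.07 against 43.0, 13.9 and 223. Mouse 9 was the highest library of all 3 genes, and mice 1 and 7 held the next highest values. Their receptor Cxcr3 ranged less, with 35.0, 12.2 and 39.6 against 77.1, 17.6 and 132. The log2FC was -3.70 ± 2.0 (SE) for Cxcl9, -3.33 ± 1.47 for Cxcl10 and -2.87 ± 1.18 for Cxcl11, each at an adjusted p of 0.99995 in edgeR. Without mouse 9 these values were -1.60, -0.68 and -1.19. An exon of Art3 on the other strand overlaps Cxcl10, and no strand was set in the quantification, so that reads of the 2 genes could not be told apart there.

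**Figure D2:**
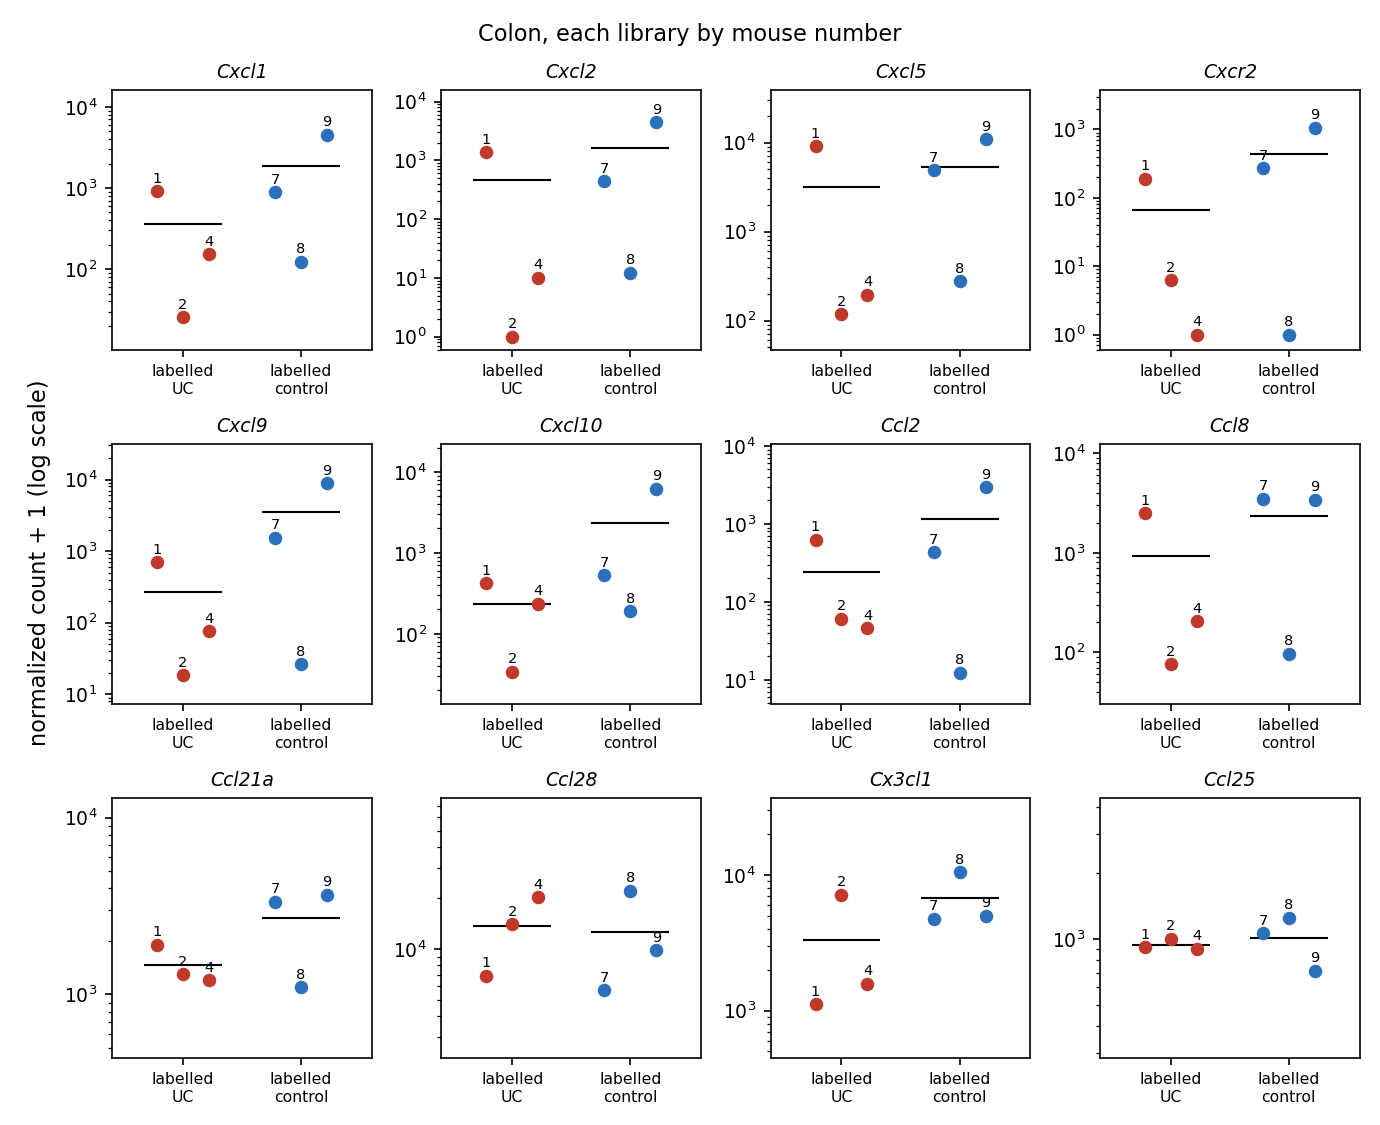
Each panel shows 1 gene in the 6 colon libraries, with normalized count + 1 on a log axis, points numbered by mouse and the mean of each labelled group as a line. In Cxcl1, Cxcl2, Cxcl5, Cxcr2, Cxcl9, Cxcl10, Ccl2, Ccl8 and Ccl21a (the gene on chromosome 4) the points of mice 1, 7 and 9 lie above those of mice 2, 4 and 8 whatever the label. Ccl28 is reversed, and Cx3cl1 and Ccl25 follow neither order.

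The monocyte ligands, whose genes lie together with Ccl11 at chr11:82035571-82116799, showed the same order of libraries. Ccl2, the main ligand of Ccr2 on inflammatory monocytes, had normalized counts of 626, 60.1 and 45.4 against 431, 11.3 and 2983. Its relatives Ccl7 and Ccl8 had 343, 45.3 and 28.9 against 444, 13.9 and 1319, and 2507, 74.9 and 203 against 3505, 95.8 and 3425. In Ccl8 the 3 high libraries lay close together, whereas in Ccl2 mouse 9 stood several times above mice 1 and 7. Ccl12, a further ligand of Ccr2, had 119, 12.2 and 36.3 against 63.2, 16.4 and 202. Ccr2 itself had 1387, 366 and 657 against 2151, 498 and 2303. Ccl2 had a log2FC of -2.22 ± 1.75 (SE), which changed sign without mouse 9.

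Among the inflammatory CC chemokines, Ccl3 and Ccl4, made by activated macrophages and lymphocytes, were at or near 0 in 3 libraries. Ccl3 had 190, 0 and 11.5 against 59.4, 0 and 847, and Ccl4 had 212, 0 and 0 against 75.9, 3.78 and 985. Ccr1, a receptor of Ccl3, was detected in each colon library with 1314, 287 and 444 against 1598, 270 and 2858. It kept the order of the neutrophil and monocyte genes. Ccl5, a product of T and NK cells, had 318, 34.0 and 65.2 against 353, 51.7 and 431. Ccl9 had 3052, 394 and 824 against 3742, 647 and 2356. Ccl6 departed from the order of the others. It had 24090, 9928 and 11239 against 18090, 6972 and 9231, with its highest values in mice 1, 7 and 4 and a log2FC of 0.38 ± 0.48 (SE).

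The eosinophil ligands did not move together. Ccl11, or eotaxin, had 830, 287 and 379 against 1258, 355 and 2194. Ccl24, a second eotaxin, had 174, 67.9 and 103 against 149, 70.6 and 36.0, so that mouse 9 held the highest Ccl11 and the lowest Ccl24 value. Their receptor Ccr3 had 51.1, 2.61 and 19.8 against 83.5, 20.2 and 169. Of the eosinophil markers, Siglecf ranged from 13.9 to 216 in the colon libraries with its highest values in mice 1, 7 and 9, Prg2 from 0 to 37.1, and Epx was listed at 0 in 5 of 6.

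The ligands of epithelium and mucosal homing were mixed, some highest in mice 1, 7 and 9 and others not. Ccl28, which draws IgA plasma cells and T cells to mucosal surfaces through Ccr10 and Ccr3, had normalized counts of 6948, 14023 and 20192 against 5674, 22140 and 9844. Mice 1, 7 and 9 thus held its 3 lowest values. Its receptor gene Ccr10 had 18.9, 19.2 and 42.1 against 0, 17.6 and 12.6, which was the only colon member at or above a mean of 10 whose labelled groups did not overlap, with 17.6 the highest labelled control value and 18.9 the lowest labelled UC value. Its log2FC was 1.38 ± 1.07 (SE) at an adjusted p of 0.99995 in edgeR. For Ccl28 the mean was 13721 ± 6627 in labelled UC and 12553 ± 8561 in labelled control (SD, n = 3 each), with a log2FC of 0.11 ± 0.58 whose sign changed when mouse 4, 7 or 9 was left out.

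Ccl20, which epithelium over lymphoid follicles makes to attract Ccr6-bearing cells, had 374, 243 and 390 against 120, 320 and 525. Ccl25, the ligand of the gut-homing receptor Ccr9, stayed within a small range, with 916, 1001 and 901 against 1060, 1248 and 714. Exons of Elavl1, a gene expressed in most tissues, overlap Ccl25 on the opposite strand, as do those of Zmynd15 for Cxcl16, Il11ra1 for Ccl27a and Bcl9l for Cxcr5, so that reads of these pairs could not be told apart. Cxcl16 had 1726, 665 and 1075 against 1775, 1075 and 3153, and Cxcl14 had 373, 249 and 272 against 809, 224 and 442. Cxcl16, the ligand of Cxcr6, and Cxcl14 both belong to the 35 members with their highest values in mice 1, 7 and 9, though over a smaller range than the neutrophil ligands. Cxcl17 had 0 to 34.1, also highest in mice 1, 7 and 9, and the chromosome 4 gene of Ccl27a had 89.98 to 149. The receptor genes Ccr9 and Cxcr6 had 45.4 to 107 and 30.3 to 180, and Cxcr6 was highest in mice 1, 7 and 9.

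Among the lymphoid genes and Ccr6, several were low in mouse 1, unlike the inflammatory ligands. Cxcr5, the receptor of B cells and follicular T cells, had 33.2, 102 and 131 against 344, 31.5 and 333. Ccr6 had 5.68, 60.1 and 47.0 against 168, 10.1 and 138. The chromosome 4 gene of Ccl19 was listed at 0, 13.1 and 0 against 88.5, 0 and 122. The summed markers of B cell follicles and high endothelial venules (Cr2, Fcer2a and Glycam1) were 10.4, 455 and 851 against 966, 81.9 and 802, and were likewise lowest in mice 1 and 8. Their part in these values was not tested. Cxcl13, which draws Cxcr5-bearing cells into follicles, instead followed the inflammatory ligands with 936, 304 and 372 against 1239, 142 and 7649. Ccr7, on naive T cells and mature dendritic cells, had 230, 40.1 and 79.2 against 477, 37.8 and 651.

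Ccl21a and Ccl21b, the ligands of Ccr7 made by lymphatic endothelium, are near-identical copies. The transcripts of the chromosome 4 genes of Ccl21a and Ccl21b differ by 2 edits over 402 bases (99.5% identity), and each symbol also belongs to a gene on an unplaced scaffold. How reads were split among these genes is uncertain, as it is for Ccl19 and Ccl27a. The 4 Ccl21 genes ran in parallel and were counted as separate members in the tallies of colon members and of tissue calls. The chromosome 4 gene of Ccl21a had 1913, 1301 and 1203 against 3341, 1095 and 3667, a smaller range than that of the induced ligands.

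The remaining colon members were the stromal, Th2 and lymphotactin genes. Cxcl12, a constitutive ligand of stroma and endothelium, had 1385, 1271 and 953 against 1793, 808 and 2653, and its receptor Cxcr4 had 414, 233 and 268 against 909, 125 and 1100. Cx3cl1, a membrane-bound ligand of epithelium and endothelium, had 1120, 7164 and 1575 against 4762, 10482 and 5012, with its lowest values in mice 1 and 4. Its receptor Cx3cr1, which marks resident gut macrophages, had 347 to 518 in all libraries and was among the steadiest members. Few counts fell on the Th2 and cross-presentation genes. Ccl22 and Ccl17, ligands of Ccr4, ranged from 19.2 to 223 and from 27.7 to 75.9, and Ccr4 from 0 to 74.6. Xcl1, from NK and CD8 T cells, ranged from 5.23 to 144, and its receptor Xcr1, on cross-presenting dendritic cells, from 28.4 to 134. The 6 members under a mean of 10 in the colon were Ccl1, Ccr8, Cxcl15, Cxcr1 and the 2 scaffold genes of Ccl27a.

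Calls by label in the colon depended on single libraries only at the unadjusted level. Without mouse 8, 23 of 55 members (41.8%) had an unadjusted p under 0.05, each lower in labelled UC, against 8.40% of all genes, and the lowest adjusted p of a member was 0.54. Without mouse 1, 13 of 53 members (24.5%) did so, each lower in labelled UC, against 3.49% of all genes. Leaving out any other mouse gave 0 to 3 members.

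In the blood the same question was asked of 28 members that entered the edgeR fit. Of these 0 were SDE, as were 0 of 16759 genes (0%), and DESeq2 also called 0 members. At an unadjusted p under 0.05 each tool returned 1 of the 28 members, beside 1.44% of all genes in edgeR and 1.75% in DESeq2. For the 27 members with a mean of at least 10, the log2FC was higher in labelled UC in 19 and lower in 8, with a median of 0.12 beside 0.04 for all genes, of which 54.2% lay above 0. With library size as the sole scaling this balance turned, with 10 of the 28 members tested above 0 and 18 below, as the median of all genes moved to -0.27. The labelled groups did not overlap in 1 of 27 members, against 6.5% of 16370 blood genes with a mean of at least 10. In 6 of 27 members (22.2%) the 3 highest values lay in mice 1, 7 and 9, against 11.8% of all genes, and in 2 they lay in mice 2, 4 and 8, against 7.29%.

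Among the 6 were Cxcr1, Cxcr2, Ccr1, Cxcl2 and Ccl22. Cxcr2 had normalized counts of 15319, 3367 and 2515 in labelled UC and 5740, 2021 and 12164 in labelled control. Cxcr1 had 375, 45.2 and 48.3 against 121, 25.3 and 219. Ccr1, carried by neutrophils and monocytes, had 8855, 2673 and 2784 against 4068, 1856 and 8336. Mouse 1 was highest and mouse 9 second in each gene, so the labelled groups overlapped. The summed neutrophil markers of the blood libraries were 413588, 44360 and 41996 against 139350, 34386 and 326680, in the same order at the top. S100a9 was the largest part of that sum in each library. Of the 7 markers, 5 had their 3 highest values in mice 1, 7 and 9, whereas Camp and Ltf had them in mice 1, 7 and 8. Whether the receptor values follow the share of neutrophils was not tested. In edgeR the log2FC of Cxcr2 was 0.09 ± 0.79 (SE) and that of Ccr1 was 0.01 ± 0.62, both at an adjusted p of 0.9998.

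Ccr3, the eosinophil receptor, ran the other way, with 40.0, 841 and 664 against 328, 703 and 256 and its 3 highest values in mice 2, 4 and 8. Its log2FC was 0.26 ± 0.87 (SE). Of the eosinophil markers, Siglecf ranged from 51.2 to 124 in the blood libraries and was highest in mice 4, 8 and 9, whereas Epx and Prg2 were listed at 0 in 5 and in 3 of the 6.

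Cxcr3, carried by effector T and NK cells, was the blood member whose labelled groups did not overlap. It had 540, 154 and 183 in labelled UC and 132, 103 and 133 in labelled control. Mouse 1 stood far above the others, whereas 154 and 183 lay close to the highest labelled control value of 133, and the log2FC of 1.24 ± 0.48 (SE) had an adjusted p of 0.9998 in edgeR. Cxcr6, found on similar cells, had 882, 217 and 344 against 207, 317 and 273 with a log2FC of 0.85 ± 0.49, and mouse 1 was again highest. The summed T cell markers were lowest in mouse 1, at 4268, and ranged from 4639 to 5999 in the other libraries. The single markers were mixed, since Cd3d, Cd3g, Cd8a and Trac were lowest in mouse 1, Cd4 was highest there and Cd3e second. The summed NK cell markers were 1512 in mouse 1 and ranged from 1179 to 2187 in the other libraries. The part of cell content in these receptor values was not tested.

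The receptors of naive lymphocytes varied over a smaller range. Ccr7 had 1685, 3003 and 3869 against 2660, 2165 and 2107. Cxcr5 had 1231, 1614 and 2670 against 2090, 2106 and 1349, and Ccr6 had 185, 351 and 503 against 343, 404 and 368. Mouse 1 was lowest and mouse 4 highest in all 3 genes. The summed B cell markers were 12686, 22671 and 28772 against 22348, 18994 and 15316 and also lowest in mouse 1 and highest in mouse 4. Whether the share of B cells moves these values was not tested. Cxcr4, which holds leukocytes in the bone marrow, had 2761, 1547 and 4438 against 3473, 3359 and 2619. Ccr2 had 3818, 3864 and 4174 against 5250, 1972 and 3476, and Ccr9 ranged from 275 to 419. Cx3cr1, on patrolling monocytes, had 520, 500 and 611 against 601, 488 and 309. Ccr4, the receptor of Ccl17 and Ccl22, stayed between 24.5 and 61.1.

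Few ligands reached the floor in blood. Ccl6 had 7223, 5438 and 5733 against 5310, 4631 and 6972, and Ccl9 had 729, 852 and 1506 against 964, 842 and 597. Ccl5 ranged from 179 to 390, Cxcl5 from 90.3 to 178, Ccl25 from 197 to 372, Ccl4 from 29.0 to 54.2 and Xcl1 from 16.6 to 50.6. Ccl3, Ccl22 and Ccl27a stayed under 50 in each library. Of the neutrophil ligands, Cxcl5 was thus present in each blood library. Cxcl2 had 113, 4.52 and 0 against 26.0, 0 and 24.8. Cxcl12 was listed at 93.7, 16.6 and 0 against 17.6, 0 and 0, so that its mean rested on mouse 1. Of the 3 interferon-induced ligands, Cxcl10 ranged from 0 to 19.6, Cxcl9 was above 0 in 1 library only, and Cxcl11 had no counts in any.

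**Figure D3:**
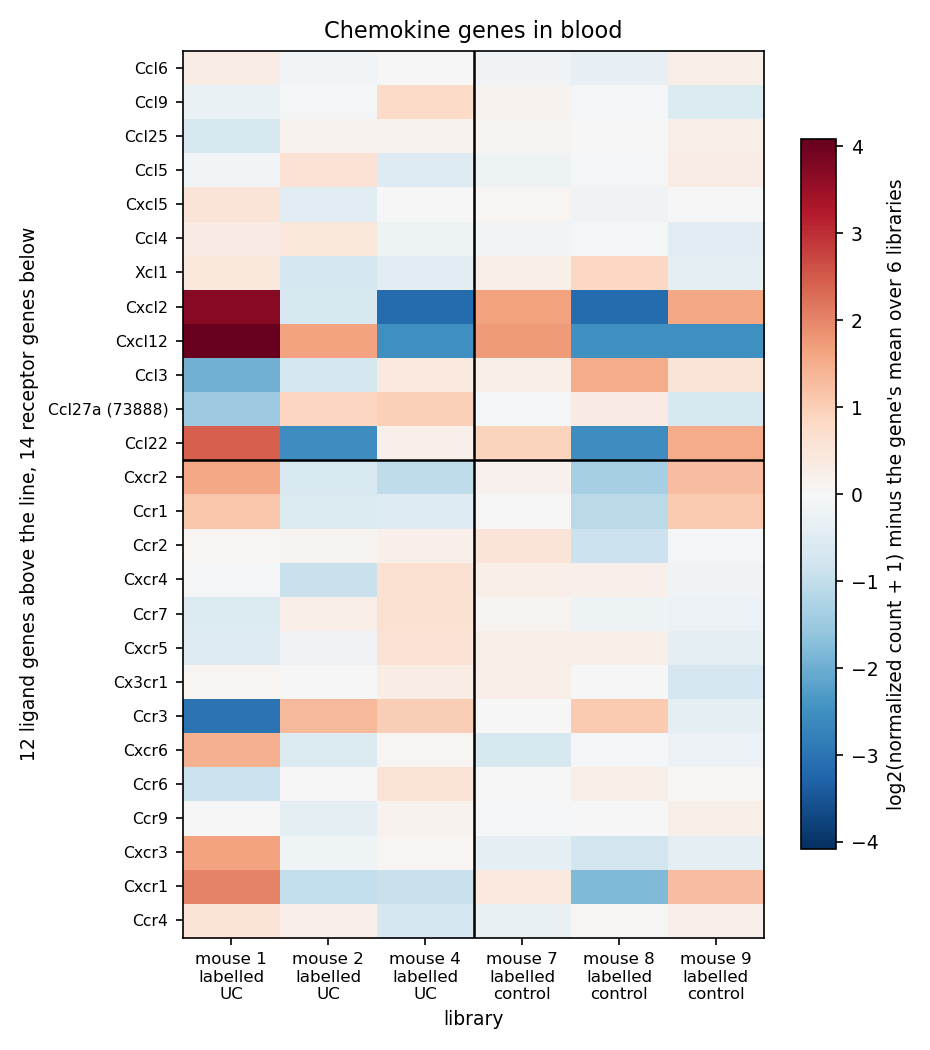
Rows are 26 of the 27 chemokine genes with a mean normalized count of at least 10 in the blood and columns the 6 blood libraries. Colour is log2(normalized count + 1) minus the gene's mean over the 6 libraries. Cxcr1, Cxcr2 and Ccr1 are reddest in mice 1 and 9, Ccr3 is bluest in mouse 1, and Cxcr3 and Cxcr6 are reddest in mouse 1.

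Whether the difference by label varied with tissue was tested with an interaction term in the fit of both tissues. Of 54 members tested 0 had an adjusted p of at most 0.05, and 1 of 23258 genes did (0.0043%). With the mouse as a replicate block, 0 members and 0 genes were called. At an unadjusted p under 0.05 there were 2 members, Cxcr3 and Cxcl13, without the block and 4 with it, beside 793 and 466 of 23258 genes.

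Colon was compared with blood over the 6 libraries of each tissue. Of the 36 ligand genes tested 26 were SDE and higher in colon, 1 was higher in blood and 9 were not called. Of the 18 receptor genes 14 were higher in blood, 1 was higher in colon and 3 were not called. Most of these ligands had a mean of at least 10 in colon alone and could be called in 1 direction only. Of the 12 ligand genes that reached that level in both tissues, 3 (Cxcl5, Cxcl12 and Ccl27a) were higher in colon, 1 (Ccl5) was higher in blood and 8 were not called. Of the 14 receptor genes at that level in both tissues, 13 were higher in blood and 1 was not called. Over all 23258 genes, 37.7% were higher in colon and 20.8% higher in blood. The counts come from the same edgeR fit, with counts scaled by TMM and given as CPM, which puts each library on a common total. The 7SL RNA genes took 4.90% to 6.50% of a colon library's counts and 35.9% to 65.4% of a blood library's, and their part in the effect of the scaling was not tested. With library size as the sole scaling, the log2FC of all genes moved from a median of 0.46 to 2.57, 33 ligands and 2 receptors were higher in colon, and 0 ligands and 12 receptors were higher in blood, which raised the colon's share of the members' calls from 64.3% to 74.5%. Relative to the median of all genes, 14 of the 14 receptors with a mean of at least 10 in both tissues lay toward blood under both scalings, whereas the 12 ligands split into 6 on either side.

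**Figure D4:**
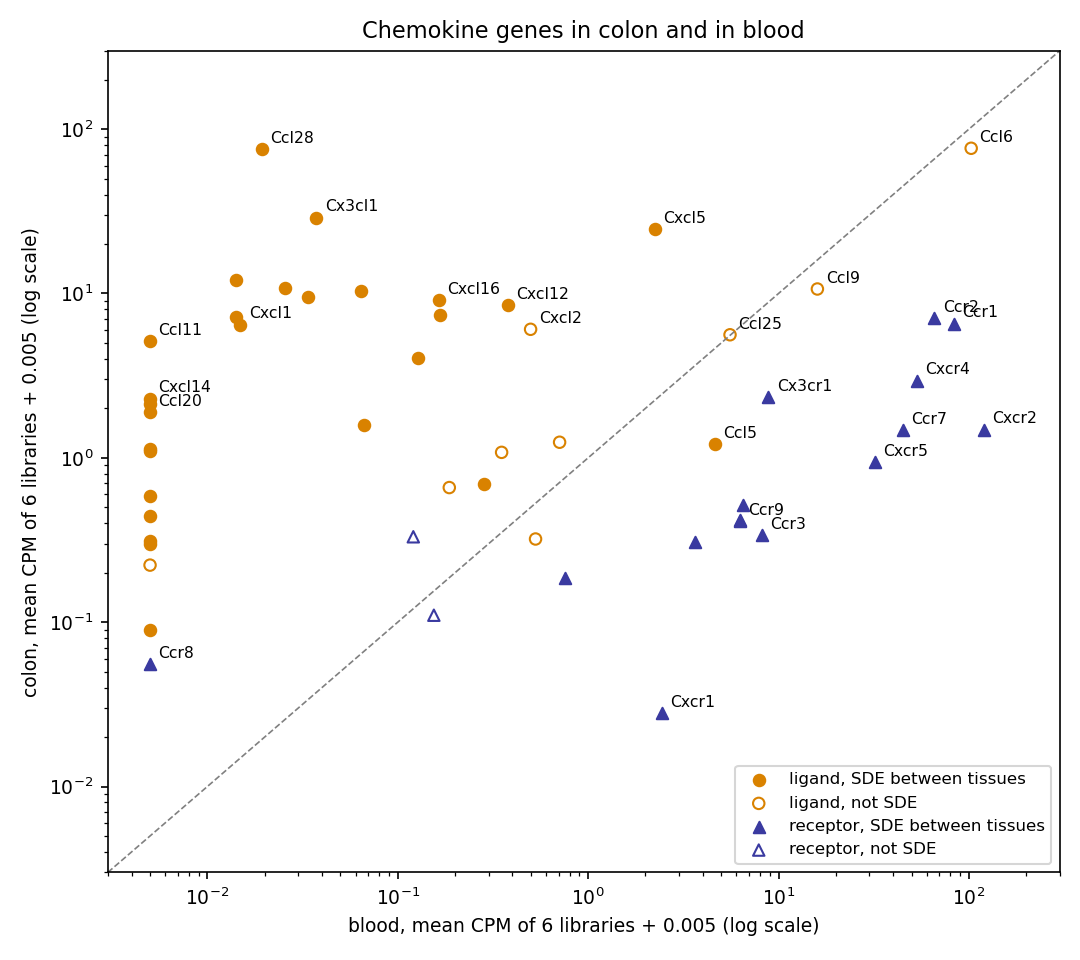
Mean CPM of the 6 blood libraries (x axis) and the 6 colon libraries (y axis), each plus 0.005 on a log axis, for 53 of the 54 chemokine genes tested. Circles are ligands, triangles receptors, filled marks are SDE between tissues, and the dashed line marks equal values. Ligands lie mostly above the line and many sit at 0 in blood at the left edge, receptors mostly below it, and Ccl6, Ccl9 and Ccl25 near it.

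Among the receptors, those of neutrophils differed most. Cxcr1 averaged 2.44 ± 2.39 CPM in blood and 0.0230 ± 0.0387 in colon (SD, n = 6 each), with a log2FC of -7.32 ± 1.13 (SE, colon over blood) and an adjusted p of 0.000155 in edgeR. Cxcr2 averaged 119.98 ± 97.8 CPM in blood and 1.48 ± 2.39 in colon, with a log2FC of -7.05 ± 1.53 and an adjusted p of 0.00165. The lymphocyte receptors Cxcr5 and Ccr7 and the eosinophil receptor Ccr3 completed the 5 most negative values, at -5.38 ± 0.60, -5.30 ± 0.68 and -5.01 ± 0.88. In each of these genes but Ccr3 all 6 blood libraries exceeded all 6 colon libraries, and for Ccr3 the blood library of mouse 1 lay below the colon library of mouse 9. Cxcr4 had a log2FC of -4.41 ± 0.50, Ccr1 of -3.91 ± 0.68 and Ccr9 of -4.05 ± 0.26, the last with the smallest adjusted p of any member, 2.24e-07. Exons of Slc6a20a on the opposite strand overlap Ccr9.

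Not each receptor was a blood gene. Ccr10 had a log2FC of -0.69 ± 0.85 (SE, colon over blood) and Xcr1 of 1.44 ± 0.97, and neither was called. Ccr8, found on regulatory and Th2 cells, was at 0 in all 6 blood libraries and had 3 to 24 counts in a colon library. Pooled over the 6 colon libraries, it was at least 5.80-fold higher in colon when 3 counts over the 6 blood libraries are taken as the limit. It was not called with the replicate block.

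For the ligands, blood often held no counts at all. Of the 27 members called higher in colon, 12 were at 0 in all 6 blood libraries. With counts pooled over the 6 colon libraries, these were at least 5.80-fold to 599.8-fold higher in colon against the limit of 3 counts over the blood libraries. Among them were Ccl11 (at least 599.8-fold), Cxcl14 (at least 258.6-fold), Ccl7 (at least 253.9-fold) and Ccl20 (at least 231.8-fold). These bounds hold for the pooled counts and not for each mouse. Mouse 9 gave 1466 of the 2277 colon counts of Ccl7, and mouse 8 gave 11. Ccl28 summed to 80911 counts in colon and 6 in blood, all in 1 library. Its ratio of pooled TMM-scaled CPM was 4511 (exact 95% interval 2072 to 12292, for counting error only). Cx3cl1 had a ratio of 692 (412 to 1266) and the chromosome 4 gene of Ccl21a of 1050 (410 to 3855). Cxcl1 summed to 7039 counts in colon and 3 in blood, a ratio of 785 (268 to 3807). Of its colon counts, 5056 lay in mouse 9 and 28 in mouse 2. The order of these ratios and bounds is not resolved by so few blood counts.

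Other ligands were present in both tissues. Cxcl5 averaged 24.8 ± 28.3 CPM in colon and 2.23 ± 0.53 in blood (SD, n = 6 each), with a log2FC of 3.30 ± 1.08 (SE) and an adjusted p of 0.017, and the tissues overlapped since mice 2, 4 and 8 had low colon values. That call was lost with the replicate block, in libraries labelled UC alone, and without mouse 1, 7 or 9. Cxcl16 had a log2FC of 5.71 ± 0.68, Cxcl12 of 4.85 ± 1.03, Ccl2 of 4.69 ± 1.24 and Cxcl10 of 4.64 ± 1.05. The last 3 of these calls were lost when only libraries labelled UC were used. Cxcl2 had a log2FC of 3.32 ± 1.75 and an adjusted p of 0.11, and was called with the replicate block and with library size as the sole scaling.

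A few ligands were as high in blood as in colon or higher. Ccl5 averaged 4.63 ± 1.25 CPM in blood and 1.21 ± 1.04 in colon, with a log2FC of -2.13 ± 0.60 and an adjusted p of 0.0082, and the call was lost with library size as the sole scaling and in libraries labelled control alone. Ccl6 averaged 103 ± 17.8 CPM in blood and 76.5 ± 38.0 in colon, with a log2FC of -0.54 ± 0.29. Ccl9 had a log2FC of -0.72 ± 0.52 and Ccl25 of -0.09 ± 0.19. These 3 were not called, and each turned to higher in colon with library size as the sole scaling.

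The calls were also counted by axis, with the limit that most ligands outside the inflammatory CC group had a mean of at least 10 in colon alone. All 3 interferon-induced ligands, 4 of 4 monocyte ligands and 2 of 2 eosinophil ligands tested were higher in colon. The receptors placed in these groups, Cxcr3, Ccr2 and Ccr3, were higher in blood. For the neutrophil axis 3 of 4 ligands were higher in colon and 2 of 2 receptors in blood. For the epithelial and mucosal homing genes these were 6 of 7 ligands and 3 of 4 receptors, and for the lymphoid genes 3 of 4 ligands and 2 of 2 receptors. The lymphoid ligands count the chromosome 4 gene and the scaffold gene of Ccl21a separately. In the inflammatory CC group 0 of 5 ligands were higher in colon and 1 (Ccl5) was higher in blood, as was the receptor Ccr1. With library size as the sole scaling, Ccl3, Ccl6 and Ccl9 were called higher in colon and the call of Ccl5 was lost. The single stromal pair was split as well, Cxcl12 toward colon and Cxcr4 toward blood. For the Th2 and skin genes 1 of 2 ligands was higher in colon, and of 2 receptors 1 was higher in colon and 1 in blood. For fractalkine and lymphotactin 1 of 2 ligands was higher in colon and 1 of 2 receptors in blood.

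Levels were compared between the members as CPM per kilobase of exon (the merged exons of GENCODE). In colon, the ligands with the highest median over the 6 libraries were Ccl6 at 33.4 (22.3 to 77.7), Ccl8 at 15.3 (0.834 to 40.1), Ccl28 at 14.2 (6.84 to 26.3), the Ccl21a genes at 13.7 and 10.6, and Cxcl5 at 8.06 (0.356 to 34.4). The ranges of all these neighbours overlap. The highest receptor in colon was Ccr1 at 1.79 (0.547 to 5.88), followed by Cxcr4 at 1.08 and Ccr2 at 0.868. The order in a given colon library depended on the mouse, since Ccl8 exceeded Ccl28 in mice 1, 7 and 9 and lay under it in mice 2, 4 and 8. In blood, Cxcr4 at 29.5 (14.7 to 43.0), Cxcr2 at 26.4 (11.4 to 88.7), Ccr7 at 21.5 (15.0 to 34.2) and Ccr1 at 21.5 (11.3 to 55.1) were the 4 highest receptors, with overlapping ranges. Cxcr1 had a median of 1.01 (0.292 to 4.44) and lay under Cxcr2 in each blood library. Among the member ligands in blood, Ccl6 was the highest at 54.6 (44.5 to 71.0). Its range lay above that of Ccl9, the next, at 4.78 (3.38 to 8.65). The platelet chemokines Ppbp and Pf4, which the rule does not match, were not ranked here. Without scaling by length, their blood means were 76691 and 24296 normalized counts, against 5884 for Ccl6.

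Genes of the pathway outside the rule were the platelet chemokines, the atypical and related receptors, and signalling genes downstream of the receptors. Of 9 such chemokine and receptor genes tested in colon and 6 in blood, 0 were SDE by label, and 0 of 15 signalling genes in either tissue. Between tissues 5 of 9 were higher in colon and 3 higher in blood. The platelet chemokines Ppbp and Pf4 had a log2FC of -11.55 ± 0.39 (SE) and -7.28 ± 0.20, whereas the scavenging receptors Ackr4, Ackr3 and Ackr2 had 9.12 ± 0.90, 5.56 ± 0.55 and 3.56 ± 0.55. Of the 15 signalling genes 11 were higher in blood, among them Dock2 at -5.38 ± 0.43 and Rac2 at -4.49 ± 0.56, which drive leukocyte migration, and 1, Rgs1, was higher in colon at 1.23 ± 0.37.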

How the data were processed

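Total RNA was sequenced from colon and whole blood of 6 mice. The authors depleted ribosomal RNA (and globin RNA in blood), trimmed the reads, mapped them to GRCm38 with STAR and quantified Ensembl 92 genes with StringTie 1.3.4c at default options, which set no strand. The deposited count table holds the authors' gene counts derived from transcript coverage. The authors' normalized tables, 1 per tissue, hold a signal scale, the count divided by 1 factor per library, which ties them to 1 tissue, and levels were set side by side only inside it. The members and gene lists were chosen with earlier results of these data known.

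The tests ran on the deposited counts in edgeR 4.0.16 under R 4.3.3 (TMM, filterByExpr, glmQLFit, glmQLFTest, Benjamini-Hochberg adjustment over all genes). Each tissue was fitted alone for the label comparison and all 12 libraries together for the interaction and for colon against blood. The SE was taken as the size of the log2FC over the root of the F statistic. The study drew both tissues from the same 6 mice, so the mouse number was used as a replicate block in an alternative. The deviations of same-numbered libraries correlated across 15802 genes at r of 0.00727 to 0.233. Other alternatives were RLE, library size, filters, DESeq2 1.42.0, 1 label at a time and each mouse left out.

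One gene counted in the totals is not reported here. Values are given for the other members in the functional groups fixed for the text and for the 5 members with the largest log2FC in each direction between tissues. Gene types, exons and coordinates came from GENCODE vM21 (GRCm38), promoters from RefSeq. Motifs were searched on both strands. The steps were tested on simulated data in which known changes, placed only in genes with high counts, were recovered. Changes in genes with low counts were not simulated, so the power of the label comparisons was not measured.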

Additional observations from a re-analysis of the deposited data

How the results depend on the processing

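The counts of SDE members by label stayed at 0 in both tissues and in the interaction under each alternative, leaving out any mouse included. Between tissues, 23 to 29 members were higher in colon and 15 higher in blood when a mouse was left out. With the replicate block these were 25 and 16, with 4 calls lost (Ccr8, Cxcl17, Cxcl3 and Cxcl5) and 3 gained, Ccl22 and Cxcl2 among them. Of 27 members higher in colon 19 kept their call under each of the 15 alternatives that tested them, and of 15 higher in blood 12 did. Within 1 tissue each mouse has 1 library, so the label comparisons could not be paired. In the interaction the paired fit called 0 members, as did the unpaired fit.

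Some single log2FC values changed sign. With library size as the sole scaling, they became -0.60 for Cxcr2 and -0.62 for Ccr1 in blood by label, and 1.54 for Ccl6, 1.38 for Ccl9 and 1.98 for Ccl25 between tissues. Ccr1 in blood was -0.023 with the genes of the normalized tables and -0.0041 in the fit of all 12 libraries. Ccl25 between tissues was 0.0146 without a filter and 0.0252 in libraries labelled UC. Without 1 mouse, the colon values by label ran from -4.42 to 0.10 for Ccl2, -8.41 to 1.00 for Cxcl2, -11.64 to 0.46 for Cxcl3, -5.11 to 0.25 for Cxcl5, -0.27 to 0.83 for Ccl28 and -0.13 to 0.89 for Ccl6. In blood they ran from -0.79 to 0.69 for Ccr1, -0.28 to 0.84 for Ccr3 and -1.16 to 0.86 for Cxcr2, and between tissues from -0.19 to 0.049 for Ccl25. The cause was not tested. The label comparisons rest on 3 libraries per label, with a biological coefficient of variation of 0.50 in colon and 0.42 in blood. The effect of depth was not tested.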
